A study of Mus musculus with 16 samples.

Results

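The mitochondrial respiratory chain is described here through 98 protein-coding genes of 20200 genes in the count table. The members were chosen by name, as genes whose symbols begin with Nduf, Uqcr, Atp5 or mt-, or with Cox followed by a digit from 4 to 8, together with Sdha, Sdhb, Sdhc, Sdhd, Cyc1 and Cycs (the rule itself uses no measured value). They comprise 42 subunits of complex I, 4 of complex II, 10 of complex III, 17 of complex IV, 15 of complex V, cytochrome c (Cycs), 8 complex I assembly factors (Ndufaf1 to Ndufaf8) and Atp5s, a factor associated with complex V. Of these, 8 are encoded by mitochondrial DNA and 90 in the nucleus, the latter spread over 19 chromosomes. In all, 94 members passed the filter on low counts, which asked for a mean CPM (reads of the gene per 1000000 reads of the library) of at least 3 in 1 or more of the 8 groups. The members that did not pass were Cox4i2, Cox7a1, Cox6a2 and Atp5s. The first 3 encode alternative complex IV subunits known from lung, heart and skeletal muscle.

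Bulk RNA sequencing was performed on myeloid cells sorted from the tissue at the bone-to-tendon interface of mice after reconstruction of the anterior cruciate ligament (ACLR). All animals were male C57BL/6 wild-type mice 12 weeks of age, all had surgery, and no unoperated group is among the samples. Live, lineage-negative CD45+ cells were sorted on day 1 and day 14 after surgery into 4 populations. CD9+ macrophages were Ly6G- CD11b+ F4/80+ CD9+ cells, and the rare cells carrying both CD9 and CX3CR1 fell into this sort. CX3CR1+ macrophages were Ly6G- CD11b+ F4/80+ CX3CR1+ CD9- cells. F4/80- myeloid cells were Ly6G- CD11b+ F4/80- cells, and neutrophils were Ly6G+ Ly6C+ cells. Each of the 8 groups has 2 libraries, 16 in all, and each library is a pool of cells from 5 to 7 mice, so p-values measure the spread between pools. Libraries of different populations shared pools of mice. The labels repeat the same replicate numbers in each population of a day, but do not say that a number stands for a pool.

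The respiratory chain passes electrons from NADH (complex I) and succinate (complex II) through complex III and cytochrome c to oxygen at complex IV, and the proton gradient that complexes I, III and IV build drives ATP synthesis by complex V. Mitochondrial DNA encodes core subunits of complexes I, III, IV and V, complex II is wholly encoded in the nucleus, and the remaining subunits are imported. Neutrophils are known for few mitochondria and for making most of their ATP by glycolysis, whereas tissue macrophages carry more mitochondria.

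Many nuclear genes of the respiratory chain are known targets of nuclear respiratory factor 1 (NRF1), GA-binding protein (an ETS-family factor) and YY1. Promoter windows of 300 bases (250 before the start of transcription and 50 after it, mouse RefSeq, build GRCm38.p6) were matched for 72 of the 90 nuclear members and searched on both strands. The palindromic NRF1 letters, the 10 bases set in capitals in the sequences of this paragraph, were held by 7 members (9.72%) and by 1.07% of 27025 genes. The ETS letters CCGGAAG were held by 25.0% of the members and 9.93% of genes, and the YY1 letters AAGATGGC by 13.9% and 3.19%. TATAAA was held by 6.94% of the members and 15.7% of genes, and CCAAT by 45.8% and 41.1%. At least 1 of the NRF1, ETS and YY1 letters was found in 31 members and at least 2 of them in 4 members. The 5 NRF1 matches that lie wholly before the start of transcription are shown with 20 bases on either side, the NRF1 letters in capitals, because these genes span complexes I, IV and V and an assembly factor and differ in how their levels vary between populations. The stretches are Ndufaf4 at chr4:24897950-24897999 (+), Atp5k at chr5:108434420-108434469 (-), Cox6a1 at chr5:115349091-115349140 (-), Atp5g2 at chr15:102671060-102671109 (-) and Ndufa11 at chr17:56717682-56717731 (+).
Ndufaf4: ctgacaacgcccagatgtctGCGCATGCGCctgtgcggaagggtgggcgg
Atp5k: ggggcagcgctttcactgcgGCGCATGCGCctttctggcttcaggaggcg
Cox6a1: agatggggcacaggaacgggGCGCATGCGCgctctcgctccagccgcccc
Atp5g2: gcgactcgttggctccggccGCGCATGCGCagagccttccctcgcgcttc
Ndufa11: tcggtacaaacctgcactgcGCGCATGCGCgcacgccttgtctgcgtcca
The first capital lies 113, 50, 162, 42 and 60 bases before the start in these genes, in that order. A match of letters is a description of the sequence, and binding was not measured. Among these genes, Ndufaf4, Atp5g2 and Ndufa11 were higher than in neutrophils in every population on both days, whereas Cox6a1 was higher in the CD9+ and CX3CR1+ macrophages on day 1 and passed in no other comparison (log2 fold changes 0.76 and 0.60, against 0.23 in F4/80- cells and 0.09 to 0.16 on day 14). Atp5k passed the test in the CX3CR1+ macrophages and F4/80- cells on day 1 (0.68 and 0.83, against 0.65 in CD9+ macrophages on that day and 0.43 to 0.56 on day 14).

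Total counts ranged from 9233952 to 19814119 per library. The summed level of 7 neutrophil markers was 31700 to 54900 CPM in neutrophils, 11800 to 15800 CPM in F4/80- cells, 2310 to 7630 CPM in CD9+ macrophages and 442 to 1070 CPM in CX3CR1+ macrophages, with no marker at 0 in any group. The 7 monocyte and macrophage markers summed to 3060 to 3640 CPM in CX3CR1+ macrophages, 1290 to 2810 CPM in CD9+ macrophages, 608 to 664 CPM in F4/80- cells and 545 to 1330 CPM in neutrophils. They include Cd9 and Cx3cr1, on which the cells were sorted. Both neutrophil libraries of day 1 (1330 and 1330 CPM) were above 1 CD9+ library of day 14 (1290 CPM). In the CD9+ libraries of day 14 the neutrophil markers (7630 and 5310 CPM) exceeded the monocyte and macrophage markers (1290 and 1880 CPM). Markers of further cell types also differed between populations. The 4 eosinophil markers summed to 5810 and 9370 CPM in the CD9+ macrophages of day 14, against 489 and 561 CPM on day 1 and at most 115 CPM in every other library. Mast cell and basophil markers summed to 423 to 792 CPM in F4/80- cells, 44.9 to 144 CPM in CD9+ macrophages and at most 0.925 CPM in CX3CR1+ macrophages. Platelet markers were 93.1 to 224 CPM in CD9+, 66.6 to 77.4 CPM in F4/80- and 2.26 to 44.5 CPM in CX3CR1+ cells. B and plasma cell markers were 37.6 to 188, 66.2 to 138 and 7.82 to 15.6 CPM in the same order. The second CD9+ library of day 1 stood apart from its partner. Over the 94 members the log2 difference between the libraries of this group had an SD of 0.799, against 0.203 to 0.564 in the other groups, and it moved with base composition, its median being -0.975 for 21 members under 45% GC and 0.0697 for 22 members at 55% GC or more. Results that involve this group are therefore also given without 1 or the other of its libraries where that changes them.

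The transcripts of mitochondrial DNA were the class of members with the largest median difference from neutrophils. Their 8 genes in the table (mt-Nd1, mt-Nd2, mt-Nd3, mt-Nd4, mt-Nd5 and mt-Nd6 of complex I, mt-Cytb of complex III and mt-Co1 of complex IV) took 0.127% to 0.221% of counts in the 4 neutrophil libraries and 0.891% to 1.92% in the other 12 libraries. In library order, the shares were 1.92% and 0.922% in CD9+ macrophages, 1.14% and 1.54% in CX3CR1+ macrophages, 1.49% and 1.61% in F4/80- cells and 0.221% and 0.127% in neutrophils on day 1. On day 14 they were 1.13% and 1.19% in CD9+ macrophages, 1.08% and 1.12% in CX3CR1+ macrophages, 0.904% and 0.891% in F4/80- cells and 0.130% and 0.128% in neutrophils. No neutrophil library overlapped any other library, and the mean share was 8.16-fold (CD9+), 7.70-fold (CX3CR1+) and 8.91-fold (F4/80-) that of neutrophils on day 1 and 8.99-fold, 8.53-fold and 6.95-fold on day 14. With totals scaled by the TMM (trimmed mean of M-values) method, which raises neutrophil shares, the day 1 folds were 6.37, 5.18 and 5.83 and the day 14 folds 6.40, 6.02 and 4.72. Single libraries also moved the folds of day 1: the CD9+ fold was 5.30 without the first CD9+ library, and leaving out the first or the second neutrophil library gave 11.2 or 6.43 (CD9+), 10.6 or 6.06 (CX3CR1+) and 12.2 or 7.01 (F4/80-).

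The 81 nuclear-encoded subunits (cytochrome c included, assembly factors left out) differed in the same direction by a smaller factor. Together they took 0.187% to 0.253% of counts in neutrophils and 0.402% to 0.582% elsewhere, again without overlap. The mean share was 2.02-fold, 2.53-fold and 2.36-fold that of neutrophils in CD9+ macrophages, CX3CR1+ macrophages and F4/80- cells on day 1, and 1.81-fold, 1.88-fold and 1.95-fold on day 14. With TMM-scaled totals the day 1 folds were 1.60, 1.70 and 1.54, and those of day 14 were 1.29, 1.32 and 1.32. The ratio of mitochondrial to nuclear counts was 0.532 to 0.873 in neutrophils and 1.88 to 3.94 in the other 12 libraries. The mean ratio outside neutrophils was 3.13-fold to 4.02-fold that of neutrophils on day 1 and 3.59-fold to 4.97-fold on day 14, and scaling does not enter it. In bulk libraries, fewer mitochondria in a cell and less RNA in a mitochondrion cannot be told apart, nor can fewer cells of a type and less RNA per cell.

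In the counts, the ribosomal RNAs of mitochondrial DNA did not follow the messenger RNAs in proportion. They took 3.75% to 6.29% of counts in neutrophils and 8.96% to 15.8% elsewhere, a mean difference of 2.14-fold to 3.0-fold, so that the ratio of mitochondrial ribosomal RNA to the 8 messenger RNAs was 28.4 to 37.5 in neutrophils and 7.95 to 11.9 in the other libraries. Whether ribosomal RNA was removed during library preparation is not given in the sources used here, and its part in these ratios was not tested. The genes of mitochondrial DNA are poor in GC (33.0% to 39.9%, against a median of 50.7% in the nuclear subunits). The 540 tested nuclear genes under 40% GC had a median log2 fold change against neutrophils between -0.20 and 0.09 over the 6 comparisons, and 23.9% to 30.6% of them had a log2 fold change of at least 1.

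**Figure D1:**
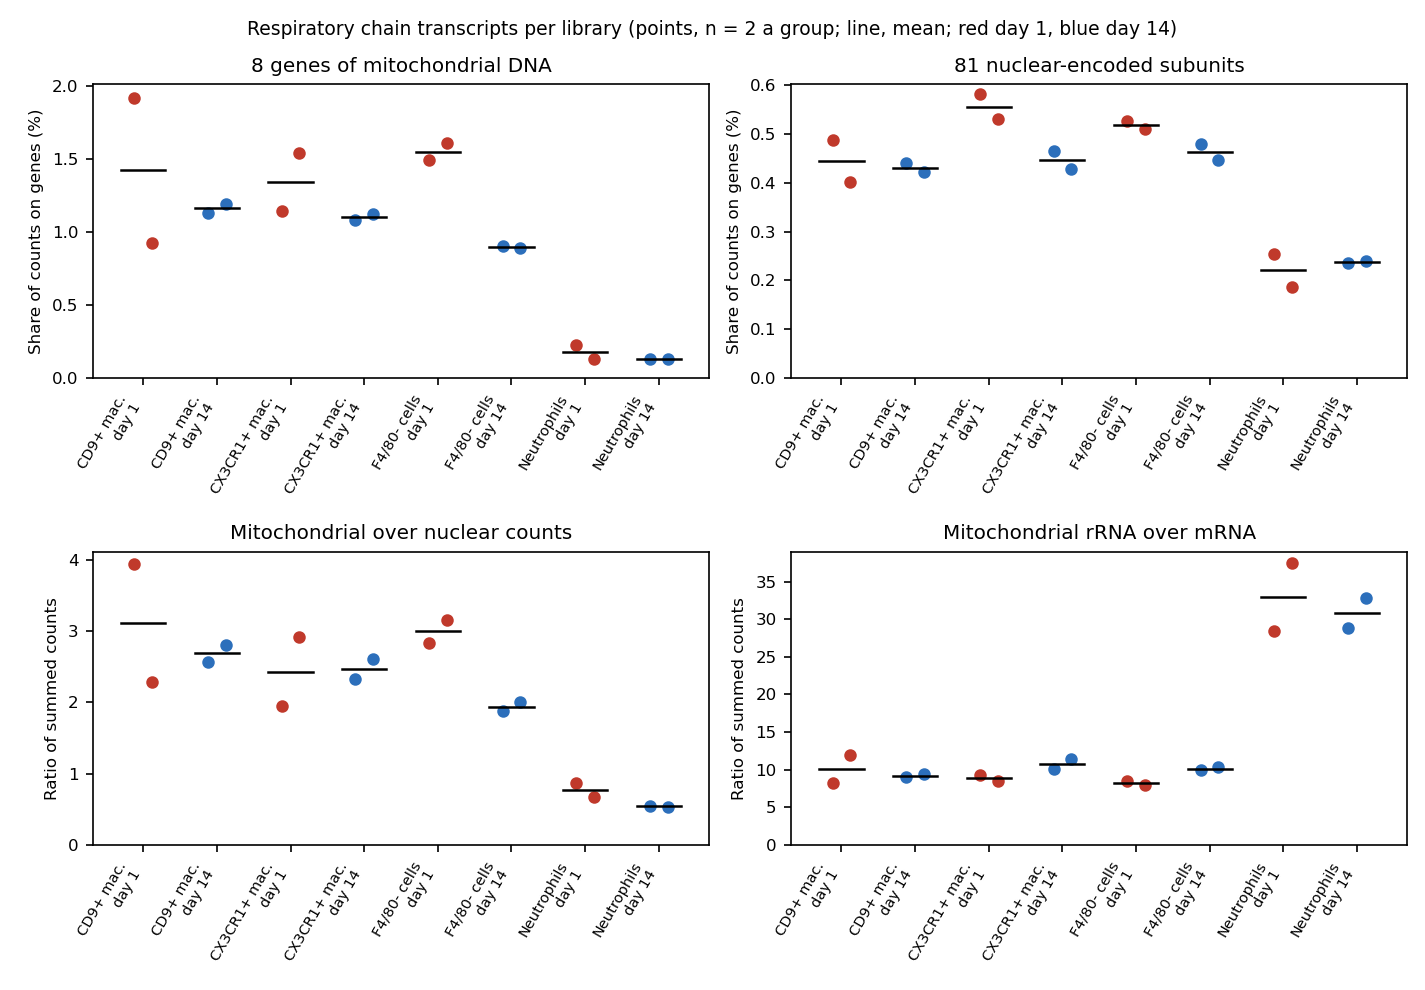
Share of counts (%) on the 8 genes of mitochondrial DNA and on the 81 nuclear-encoded subunits, and ratios of summed counts, in each library (points, 2 a group; line, mean; red, day 1; blue, day 14). Neutrophils sit at 0.127% to 0.221% for the mitochondrial genes and have mitochondrial to nuclear ratios of 0.532 to 0.873, below all other libraries, and ribosomal to messenger ratios of 28.4 to 37.5, above them.

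Tested gene by gene with edgeR's quasi-likelihood test and Benjamini-Hochberg adjustment over 11998 genes, most members were higher outside neutrophils on day 1. In CD9+ macrophages 62 of 94 members were higher and 1 lower than in neutrophils, where 35.5% of all tested genes were higher and 33.7% lower. In CX3CR1+ macrophages 67 were higher and 1 lower (35% and 34.8% of all genes), and in F4/80- cells 54 were higher and 3 lower (33.5% and 34.8%). The median log2 fold change of the members was 0.86, 0.91 and 0.74, against 0.06, 0.00 and -0.02 over all genes. Fewer members passed on day 14. They were 45 higher and 4 lower in CD9+ macrophages (37.2% and 31.6% of all genes), 42 and 2 in CX3CR1+ macrophages (35.4% and 31.5%) and 42 and 2 in F4/80- cells (34.3% and 33.3%), with medians of 0.59, 0.49 and 0.51 against 0.12, 0.11 and 0.04 over all genes. With the further demand that the log2 fold change exceed 1 in size, 40, 40 and 36 members passed in the 3 populations of day 1, where 49.5%, 51% and 49% of all genes did, and 20, 25 and 20 in those of day 14, where 49.5%, 48% and 48.7% did. All 6 comparisons use the neutrophil libraries of their day, which the 3 comparisons of a day share. Neutrophils had the lowest scaling factors of the TMM method (0.752 to 0.781, against 0.897 to 1.16 elsewhere), and with library size alone the median over all genes moved by 0.33 to 0.61 toward higher values in the other populations.

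Every one of the 8 mitochondrially encoded genes was higher than in neutrophils in each of the 6 comparisons, with median log2 fold changes of 2.72, 2.66 and 2.51 on day 1 and 2.65, 2.47 and 2.35 on day 14. Without the first CD9+ library of day 1, mt-Nd3 did not pass in CD9+ macrophages on that day (0.42). mt-Co1 encodes the catalytic subunit of complex IV, which reduces oxygen, and was the most abundant of them per kilobase in every group, from 4070 CPM per kb in the CD9+ macrophages of day 1 to 533 CPM per kb in the neutrophils of day 14. In library order it measured 7720 and 4860 CPM in CD9+ macrophages, 4010 and 5830 CPM in CX3CR1+ macrophages, 5680 and 6030 CPM in F4/80- cells and 1540 and 846 CPM in neutrophils on day 1. On day 14 it measured 4180 and 4530, 3890 and 4170, 3230 and 3370, and 815 and 832 CPM in the same order. The neutrophil libraries were below all others on both days, with log2 fold changes of 2.40, 2.04 and 2.29 on day 1 and 2.40, 2.29 and 2.0 on day 14 (SE 0.27 each; adjusted p at most 8.9e-06). mt-Nd1, a membrane subunit of complex I, had larger differences (3.16, 2.98 and 3.16 on day 1; 3.33, 3.13 and 2.75 on day 14; adjusted p at most 4.0e-07). Reads from the near-identical nuclear copies that mitochondrial sequences are known to have cannot be told apart from these genes in a count table.

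mt-Nd6 stood apart from the other mitochondrial genes. It encodes a membrane subunit of complex I and is the one protein gene read from the opposite strand of mitochondrial DNA (chromosome M, 13552 to 14070, minus strand), so that its transcript comes from the other promoter. It measured 240 and 175 CPM in CD9+ macrophages, 89.7 and 125 CPM in CX3CR1+ macrophages, 150 and 136 CPM in F4/80- cells and 39.6 and 29.4 CPM in neutrophils on day 1. On day 14 the values were 137 and 148 CPM, 58.8 and 61.8 CPM, 60.1 and 56.7 CPM, and 30.7 and 28 CPM. The CD9+ libraries were thus above all other libraries of their day. Relative to the other 7 mitochondrial genes, mt-Nd6 was 1.71% and 1.89% in the neutrophils of day 14 and 0.600% to 0.774% in the CX3CR1+ macrophages and F4/80- cells of that day, with CD9+ macrophages between them at 1.35% and 1.37%. On day 1 the CD9+ macrophages (1.28% and 1.73%) overlapped the neutrophils (1.37% and 1.81%), and the CX3CR1+ macrophages (0.920% and 0.903%) and F4/80- cells (1.17% and 0.986%) were below both. The difference of mt-Nd6 from neutrophils ranged from a log2 fold change of 2.59 (SE 0.19, adjusted p = 2.9e-08) in the CD9+ macrophages of day 1 to 0.99 (SE 0.19, adjusted p = 3.1e-04) in the F4/80- cells of day 14. How the counting used strand is not given in the sources used here, so reads of the long transcript that crosses mt-Nd6 on the other strand cannot be told apart from it.

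**Figure D2:**
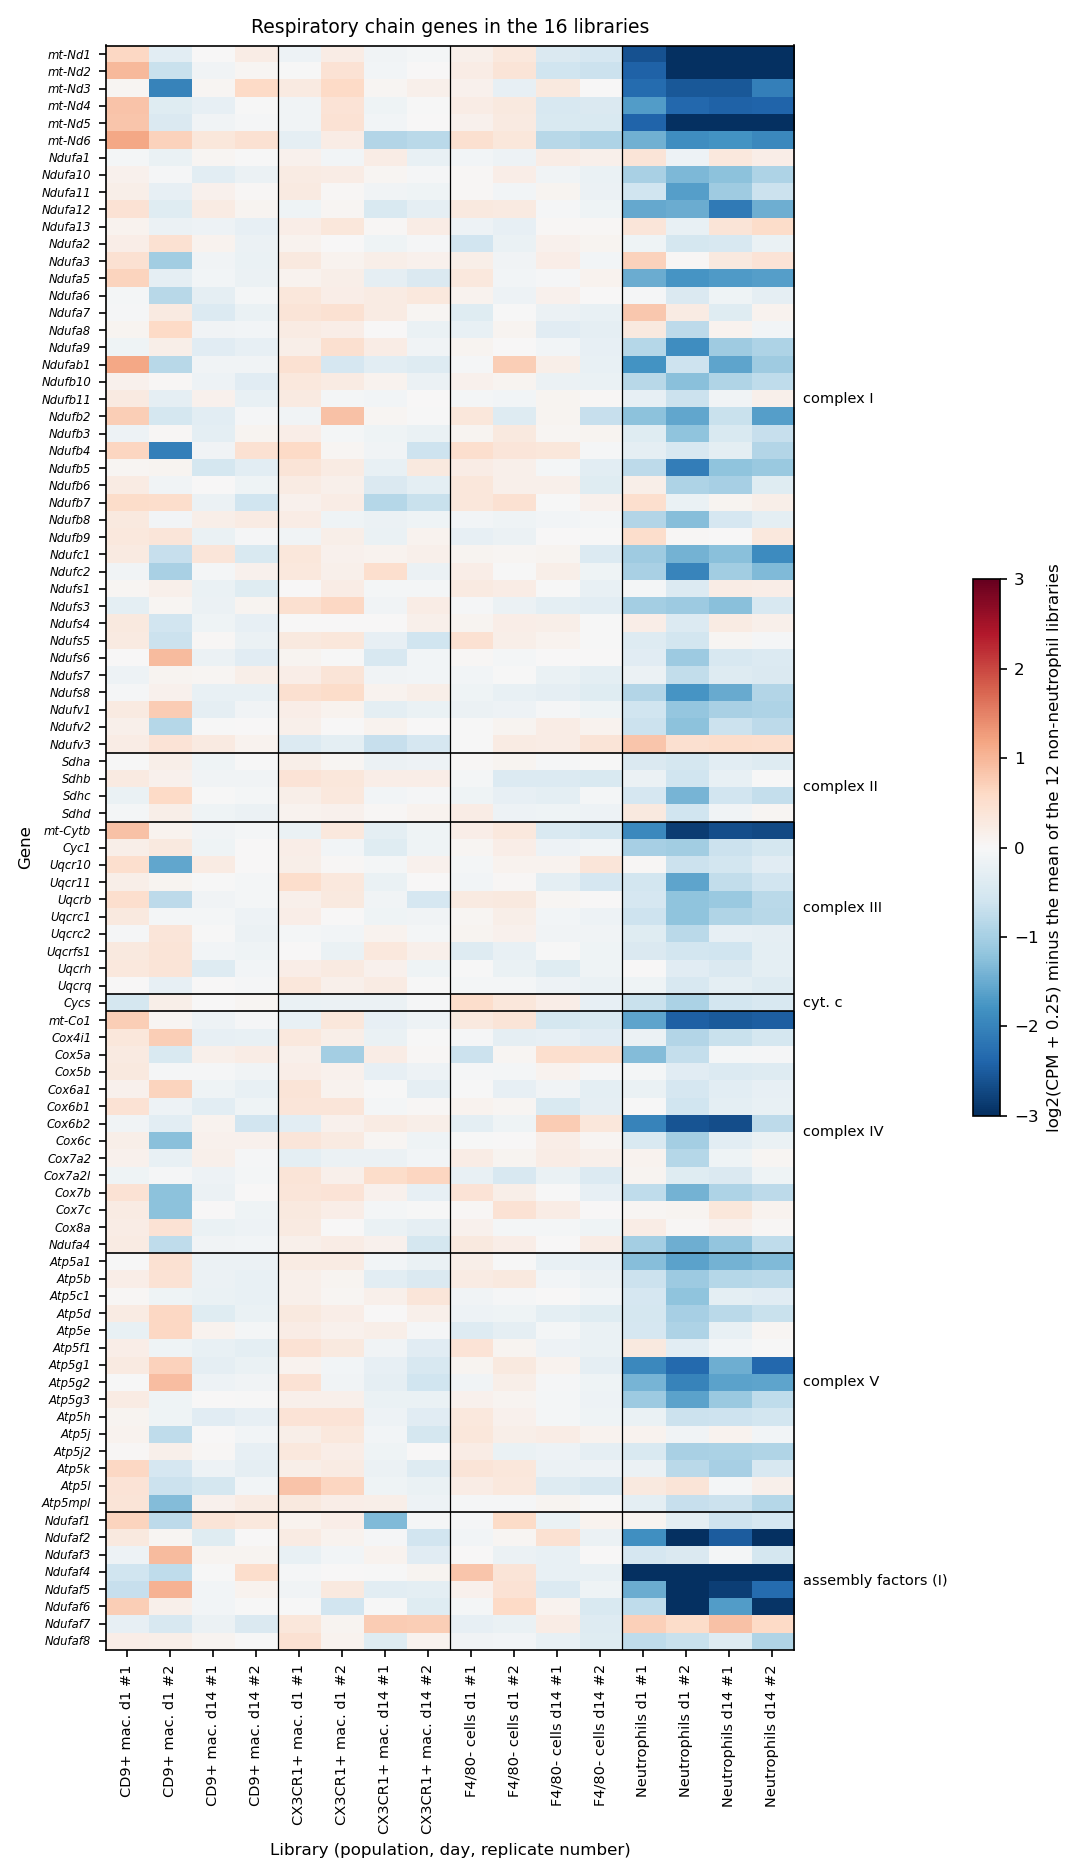
Levels of 93 of the 94 tested members in the 16 libraries, as log2(CPM + 0.25) minus the mean of the 12 non-neutrophil libraries, ordered by complex with mitochondrially encoded genes first in each. The 4 neutrophil columns on the right are darkest blue for the mitochondrial genes and for several assembly factors, and the second CD9+ column of day 1 departs from its partner in both directions.

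Complex I, the largest complex, takes electrons from NADH. Among its 36 tested nuclear subunits, 20, 23 and 20 were higher than in neutrophils in CD9+ macrophages, CX3CR1+ macrophages and F4/80- cells on day 1, and 16, 14 and 14 on day 14. Of all genes, 35.5%, 35% and 33.5% were higher on day 1 and 37.2%, 35.4% and 34.3% on day 14. The day 14 counts of complex I are near these shares. The 7 nuclear core subunits, which carry the flavin and the iron-sulphur clusters or hold the quinone site, were higher in 5, 7 and 6 cases on day 1 (71.4%, 100% and 85.7%) and in 6, 5 and 4 on day 14 (85.7%, 71.4% and 57.1%). Of the 29 accessory subunits, which stabilise the complex, 15, 16 and 14 were higher on day 1 (51.7%, 55.2% and 48.3%, above the shares of all genes) and 10, 9 and 10 on day 14 (34.5%, 31.0% and 34.5%, near or below the 37.2%, 35.4% and 34.3% of all genes). Ndufs8 and Ndufv1, core subunits that hold iron-sulphur clusters, were higher in all 6 comparisons, with log2 fold changes of 0.85 to 1.80 for Ndufs8 and 0.68 to 1.39 for Ndufv1. Among the accessory subunits Ndufa5 (1.36 to 1.93) and Ndufa12 (1.44 to 1.98) were higher in all 6.

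A few complex I subunits ran against the rest. Ndufv3, an accessory subunit beside the flavin-binding subunits (chromosome 17, 31520115 to 31531326), measured 90.2 and 70.4 CPM in the neutrophils of day 1 and 72.3 and 71.9 CPM in those of day 14. It measured 37.8 and 40.8 CPM in the CX3CR1+ macrophages of day 1 and 31.3 and 35.2 CPM in those of day 14, the lowest values of any group, while CD9+ macrophages and F4/80- cells held 50.3 to 67.4 CPM. CX3CR1+ macrophages were below neutrophils on both days (log2 fold changes -1.03 and -1.12, adjusted p = 2.7e-05 and 1.7e-05), and F4/80- cells on day 1 (-0.54, adjusted p = 0.0056), where the value was 0.07 with library size alone and did not pass without the first F4/80- library (-0.36) or the first neutrophil library (-0.34) of that day. Also lower than in neutrophils were Ndufa7 in the F4/80- cells of day 1 (-0.74, adjusted p = 0.0097; -0.51 and -0.42, not past the threshold, without the first F4/80- or neutrophil library of that day) and Ndufb7 on day 14 in CX3CR1+ macrophages (-0.90, adjusted p = 0.0011) and CD9+ macrophages (-0.51, adjusted p = 0.034; -0.30 without the second CD9+ library of day 14). These are accessory subunits, as is Ndufa13 (GRIM-19), which was lower on day 14 in CD9+ macrophages (-0.67, adjusted p = 0.0035) and F4/80- cells (-0.44, adjusted p = 0.039; 0.13 with library size alone). Ndufs1, the core subunit with the most iron-sulphur clusters, was lower in the CD9+ macrophages of day 14 (-0.49, adjusted p = 0.0073; 0.01 with library size alone, and -0.39 without the second CD9+ library of day 14).

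Complex II links the citric acid cycle to the chain. Sdha, its flavoprotein, was higher than in neutrophils in all populations on day 1 (0.54 to 0.60) and in CD9+ macrophages and F4/80- cells on day 14 (0.27 and 0.32). Sdhb, the iron-sulphur subunit, was higher in CD9+ and CX3CR1+ macrophages on day 1 (0.57 and 0.75), and the membrane anchor Sdhc in all 3 populations on day 1 (0.70 to 1.14). The other anchor, Sdhd, did not pass in any comparison, with log2 fold changes of -0.14 to 0.19. The complex II medians were 0.57, 0.68 and 0.34 on day 1 and 0.14, 0.26 and 0.10 on day 14, where all genes had medians of 0.12, 0.11 and 0.04.

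Complex III passes electrons from quinol to cytochrome c. Of its 9 nuclear subunits 7, 8 and 5 were higher than in neutrophils on day 1 and 4, 3 and 4 on day 14. Over all genes, 35.5%, 35% and 33.5% were higher on day 1 and 37.2%, 35.4% and 34.3% on day 14. The day 14 counts of complex III are near these shares. Uqcrc1, a core protein, was higher in all 6 comparisons (0.75 to 1.02). Cyc1, the haem-bearing cytochrome c1, was higher by 1.26, 1.09 and 1.16 on day 1 and by 0.53 and 0.46 in the CD9+ macrophages and F4/80- cells of day 14, while in CX3CR1+ macrophages it did not pass on that day (0.33, adjusted p = 0.077). Cytochrome c itself (Cycs), the mobile carrier that also takes part in apoptosis, was higher by 0.67, 0.62 and 1.25 on day 1 and by 0.56 in the CD9+ macrophages of day 14. It measured 39.1 and 34.6 CPM in the F4/80- cells of day 1 and 16.9 and 14.0 CPM in the neutrophils of that day.

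Complex IV passes the electrons to oxygen. Of its 13 tested nuclear subunits 7, 9 and 4 were higher than in neutrophils on day 1 (53.8%, 69.2% and 30.8%, where 35.5%, 35% and 33.5% of all genes were) and 2, 4 and 3 on day 14 (15.4%, 30.8% and 23.1%, below the 37.2%, 35.4% and 34.3% of all genes), and the medians were 0.46, 0.64 and 0.36 on day 1 and 0.24, 0.22 and 0.30 on day 14. Cox8a did not pass in any of the comparisons (log2 fold changes -0.32 to 0.19), and per kilobase it was the most abundant nuclear subunit in neutrophils (129 and 124 CPM per kb on days 1 and 14). In the other 6 groups the most abundant nuclear subunit by this measure was Atp5a1 of complex V. These rankings depend on the length used, which joins all exons of a gene. For Atp5b it is 4237 bases, while its longest transcript has 1916. Cox4i1, Cox6a1 and Cox6b1 were the forms measured at 28.1 CPM or more, while their partners Cox4i2 and Cox6a2 stayed at or below 1.69 CPM in every library. The third partner, Cox6b2, a form known from testis, was low but higher than in neutrophils in 5 of 6 comparisons (1.85 to 2.72), at 1.82 to 5.0 CPM outside neutrophils and 0.240 to 1.54 CPM within them. Cox7b was higher on day 1 (0.89, 1.45 and 1.35), and its value in CD9+ macrophages was -0.19 without the first CD9+ library of day 1.

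The complex IV subunit Ndufa4, named for complex I, where it was first placed, and its paralogue AA467197, known to take its place in complex IV during inflammation, ran in opposite directions. Ndufa4 measured 11.9 and 8.66 CPM in the neutrophils of day 1, 10.7 and 14.3 CPM in those of day 14, and 14.3 to 30.0 CPM in the other libraries, and it was higher than in neutrophils in all 6 comparisons (log2 fold changes 0.80 to 1.5), with no overlap within a day. AA467197, which is not a member, measured 58.7 and 49.8 CPM in the neutrophils of day 1 and 41.5 and 57.0 CPM in those of day 14, against 2.71 to 19.3 CPM in the other libraries of day 1. On day 14 it measured 4.50 and 3.54 CPM in CD9+ macrophages, 4.20 and 5.21 CPM in F4/80- cells, and 0 and 0.0925 CPM in CX3CR1+ macrophages. The ratio of AA467197 to Ndufa4 was 3.89 to 5.75 in the neutrophil libraries. On day 1, AA467197 was lower than in neutrophils by log2 fold changes of -1.97, -3.63 and -2.35 in CD9+ macrophages, CX3CR1+ macrophages and F4/80- cells (adjusted p at most 1.8e-04).

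Complex V, the ATP synthase, had 10, 11 and 10 of 15 subunits higher than in neutrophils on day 1 and 8, 9 and 8 on day 14. The shares of all genes were 35.5%, 35% and 33.5% on day 1 and 37.2%, 35.4% and 34.3% on day 14. Atp5a1 and Atp5b encode the alpha and beta subunits of the catalytic head, and both were higher in all 6 comparisons (1.14 to 1.68 for Atp5a1 and 0.46 to 1.18 for Atp5b). The largest differences were in Atp5g1 and Atp5g2, which with Atp5g3 encode the same mature c subunit of the membrane ring. Atp5g1 was higher by 2.69, 2.21 and 2.38 on day 1 and by 1.69, 1.56 and 1.85 on day 14, and Atp5g2 by 2.31, 1.96 and 1.82 and by 1.57, 1.26 and 1.62. Atp5g3 was higher by 1.39, 1.48 and 1.43 on day 1 and by 0.92, 0.73 and 0.82 on day 14. In library order Atp5g1 measured 3.66 and 2.71 CPM in the neutrophils of day 1 and 5.16 and 2.67 CPM in those of day 14, and 10.5 to 23.8 CPM in all other libraries, with no overlap.

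**Figure D3:**
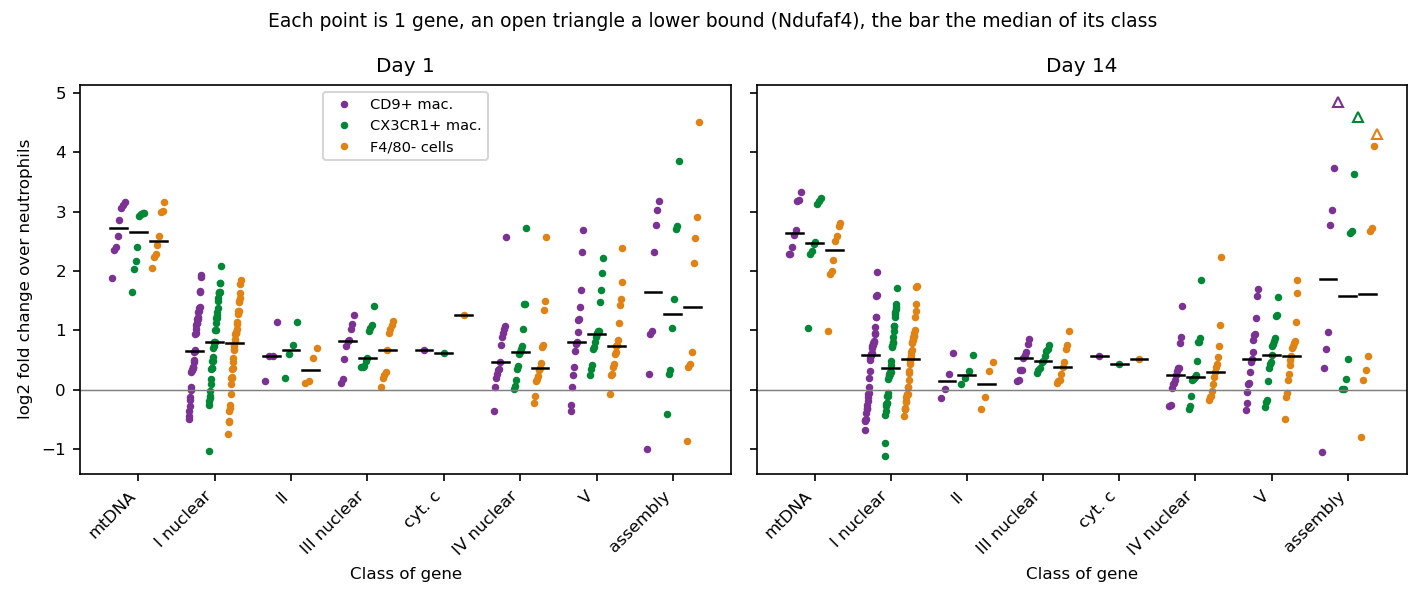
Log2 fold change over neutrophils of each tested member by class of gene, on day 1 (left) and day 14 (right), for CD9+ macrophages, CX3CR1+ macrophages and F4/80- cells (points, genes; bars, class medians; open triangles, lower bounds for Ndufaf4). The mitochondrially encoded genes have medians of 2.35 to 2.72, above those of every nuclear-encoded class.

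The complex I assembly factors, which are not part of the finished complex, held both the largest differences and some that ran the other way. Ndufaf4 (chromosome 4, 24898083 to 24905001, plus strand), which works in an early step of assembly, measured 0.374 and 0.700 CPM in the neutrophils of day 1 and 0.120 and 0 CPM in those of day 14, the latter resting on counts of 1 and 0. In the other libraries it measured 4.53 to 14.1 CPM, with the highest values in the F4/80- cells of day 1 (14.1 and 10.2 CPM). On day 1 it was higher than in neutrophils by log2 fold changes of 3.17 (SE 0.44, adjusted p = 1.3e-05), 3.85 (SE 0.42, adjusted p = 1.2e-06) and 4.50 (SE 0.42, adjusted p = 2.5e-07) in CD9+ macrophages, CX3CR1+ macrophages and F4/80- cells. Against a floor of 3 counts in each neutrophil library (0.334 CPM on average), it was at least 28.7-fold, 24.0-fold and 19.9-fold higher on day 14. Ndufaf2, which acts late in assembly, and Ndufaf5, which modifies the core subunit Ndufs7, were also higher in all 6 comparisons (2.56 to 4.10 and 2.68 to 3.02), from neutrophil levels of at most 1.27 CPM for each. In neutrophils Ndufaf2 measured 0.72 and 0 CPM on day 14. Ndufaf5 measured 1.27 and 0 CPM in those of day 1 and 0.36 and 0.615 CPM in those of day 14. The log2 fold changes from these levels rest on few counts and depend on the prior count. Ndufaf7, a methyltransferase needed for complex I assembly, ran the other way: it measured 23.1 to 29.0 CPM in neutrophils and 11.3 to 18.4 CPM in CD9+ macrophages and F4/80- cells. It was lower than in neutrophils in CD9+ macrophages (log2 fold changes -0.99 on day 1 and -1.05 on day 14, adjusted p = 8.5e-04 and 5.6e-04) and in F4/80- cells (-0.86 and -0.79, adjusted p = 0.0021 and 0.0043), where the day 14 value did not pass without the second F4/80- library (-0.48). In CX3CR1+ macrophages the values were -0.41 and 0.02, which did not pass.

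Among the CD9+ macrophages, CX3CR1+ macrophages and F4/80- cells, the members differed far less. Between CD9+ and CX3CR1+ macrophages, 2 members were higher in CD9+ cells and 1 lower on day 1 (10.4% and 5.28% of all genes), and 2 and 2 on day 14 (14.5% and 11.8%), shares below those of all genes. Between CD9+ macrophages and F4/80- cells, 8 members were higher and 1 lower on day 1 (16.7% and 12.4% of all genes), and 1 was higher on day 14 (9.3%). Between CX3CR1+ macrophages and F4/80- cells, 7 were higher and 2 lower on day 1 (18.1% and 18.4%), and 3 and 2 on day 14 (19.6% and 17.4%). The counts of day 1 that involve CD9+ macrophages depended on scaling and on single libraries. With library size alone the 8 higher and 1 lower against F4/80- cells became 0 and 6 and the 2 higher and 1 lower against CX3CR1+ macrophages became 2 and 10, while without the first CD9+ library of day 1 they became 14 and 21, and 6 and 21.

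Some genes set the populations apart on both days. mt-Nd6 was higher in CD9+ than in CX3CR1+ macrophages on day 1 (log2 fold change 0.95, SE 0.18, adjusted p = 0.0023) and day 14 (1.24, SE 0.19, adjusted p = 1.3e-04), and higher in CD9+ macrophages than in F4/80- cells on day 14 (1.29, SE 0.19, adjusted p = 2.1e-04). Ndufv3 was lower in CX3CR1+ macrophages than in CD9+ macrophages (CD9+ over CX3CR1+ 0.68 on day 1, adjusted p = 0.0075, and 0.80 on day 14, adjusted p = 0.0014) and than in F4/80- cells (CX3CR1+ over F4/80- -0.49, adjusted p = 0.020, and -0.91, adjusted p = 3.0e-04). The day 1 differences between CD9+ and CX3CR1+ macrophages in these genes did not pass without the first CX3CR1+ library of that day (0.72 for mt-Nd6 and 0.61 for Ndufv3). Cox7a2l (chromosome 17, 83501918 to 83517330, minus strand) was higher in CX3CR1+ macrophages. It measured 60.6 and 52.0 CPM in them on day 1 and 67.9 and 72.5 CPM on day 14, and 33.3 to 45.6 CPM in CD9+ macrophages and F4/80- cells. Against F4/80- cells the log2 fold change was 0.62 on day 1 (adjusted p = 0.0094) and 0.89 on day 14 (adjusted p = 7.3e-04), and CD9+ macrophages were below CX3CR1+ macrophages on day 14 (-0.71, adjusted p = 0.0062). Sdhb was also higher in CX3CR1+ macrophages than in F4/80- cells on both days (0.61 and 0.64, adjusted p = 0.0060 and 0.0049). Without the second F4/80- library of day 1, the differences of that day from F4/80- cells came to -0.35 for Ndufv3, 0.50 for Cox7a2l and 0.45 for Sdhb and did not pass, and without the first CD9+ library of day 14 that of Cox7a2l between CD9+ and CX3CR1+ macrophages did not pass either (-0.67). Ndufaf7 was higher in CX3CR1+ macrophages on day 14 than in CD9+ macrophages (CD9+ over CX3CR1+ -1.07, adjusted p = 0.0017) and F4/80- cells (0.81, adjusted p = 0.0071; 0.53 and not past the threshold without the second F4/80- library of that day).

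Ndufb7 was lower in CX3CR1+ macrophages than in F4/80- cells on day 14 (-0.82), at 27.6 and 31.5 CPM against 49.8 and 54.7 CPM. The differences that follow passed on day 1 and not on day 14. Ndufaf4 was lower in CD9+ macrophages than in F4/80- cells (-1.34, SE 0.33, adjusted p = 0.0070), at 5.07 and 4.53 CPM against 14.1 and 10.2 CPM, and did not pass without the first F4/80- library (-1.1). Cycs was lower in CX3CR1+ macrophages than in F4/80- cells (-0.63, adjusted p = 0.029; -0.71 to -0.54, not past the threshold, without any 1 of the compared libraries), and the core subunits Ndufs3 and Ndufs8 were higher (0.66 and 0.70; 0.59 to 0.74 and 0.66 to 0.74, not past the threshold, without any 1 of the compared libraries). Ndufa2, Ndufv1 and Cox4i1 were higher in CD9+ macrophages than in F4/80- cells (0.71, 0.70 and 0.71). None of these passed without the second CD9+ library of day 1 (0.57, 0.44 and 0.50) or with library size alone (0.43, 0.41 and 0.42), and each also lost the call without 1 or the other F4/80- library of that day (0.52, 0.67 to 0.69 and 0.58). Ndufa6 was lower in CD9+ than in CX3CR1+ macrophages (-0.66, adjusted p = 0.043; -0.33 without the second CD9+ library of day 1). Neutrophil markers were 11800 to 15800 CPM in the F4/80- cells and at most 1070 CPM in the CX3CR1+ macrophages, and Ndufv3 and AA467197 had their highest group means in neutrophils. The part of such cells in these differences was not tested.

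**Figure D4:**
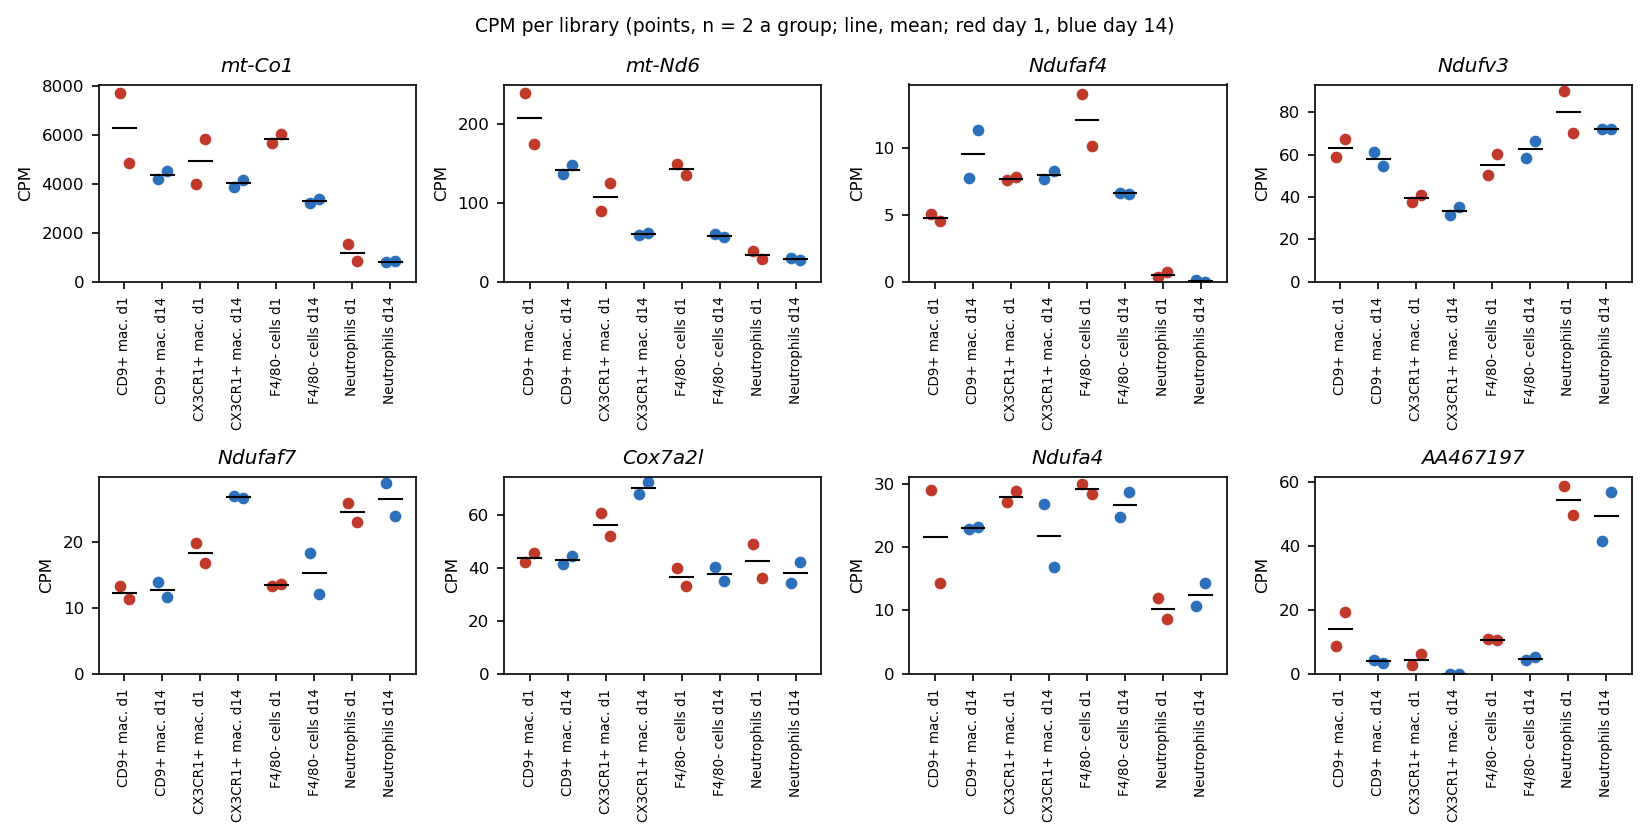
CPM in each library of 7 members and AA467197, the paralogue of Ndufa4 (points, 2 a group; line, mean; red, day 1; blue, day 14; linear axes from 0). Ndufaf4 is near 0 in neutrophils (0 to 0.700 CPM), Ndufv3 is lowest in CX3CR1+ macrophages (31.3 to 40.8 CPM), Cox7a2l is highest in them on day 14 (67.9 and 72.5 CPM), and AA467197 is highest in neutrophils (41.5 to 58.7 CPM).

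From day 1 to day 14 few members changed, and most of the changes were decreases. By edgeR's test 9 of 94 members fell and 0 rose in CD9+ macrophages, where 9.24% of all genes fell and 8.46% rose (18 members at an unadjusted p under 0.05; 12 falls and 1 rise by DESeq2). In CX3CR1+ macrophages 6 fell and 0 rose (6.07% and 6.54% of all genes; 17 at an unadjusted p under 0.05; 9 falls and 0 rises by DESeq2), and in F4/80- cells 1 fell and 0 rose (3.66% and 2.44% of all genes; 17 at an unadjusted p under 0.05; 3 falls and 0 rises by DESeq2). The sign was negative in 66, 80 and 67 of 94 members in these populations, called or not. In neutrophils 3 rose and 2 fell (11.5% and 16.2% of all genes). The members' median log2 fold change was -0.24, -0.28, -0.19 and 0.05 in CD9+ macrophages, CX3CR1+ macrophages, F4/80- cells and neutrophils, against 0.00, 0.03, -0.02 and -0.02 over all genes. Both directions together, the share of members that changed was below that of all genes in every population. The falls alone were near the share of all genes in CD9+ and CX3CR1+ macrophages and below it in F4/80- cells and neutrophils.

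The falls in CD9+ macrophages were spread over complexes I, III, IV and V. Ndufb7, an accessory subunit in the membrane arm of complex I, fell by 0.92 on the log2 scale (SE 0.20, adjusted p = 0.0058), from 73.9 and 72.1 CPM to 44.2 and 33.0 CPM. Cox4i1, a regulatory subunit of complex IV that binds ATP, fell by 0.80 (SE 0.19, adjusted p = 0.010), from 141 and 185 CPM to 93.1 and 94.7 CPM. Atp5d, the delta subunit in the stalk of complex V, fell by 0.73 (SE 0.17, adjusted p = 0.0077), Atp5b by 0.53, Cox8a by 0.50 and the Rieske protein Uqcrfs1 of complex III by 0.46. These genes were named from the called members without overlap between the days, so the lack of overlap was part of their choice. Eosinophil markers rose over the same interval in this sort, from 489 and 561 CPM to 5810 and 9370 CPM, and their part in these changes was not tested. The count of 9 became 29 (14 rose and 15 fell) without the first CD9+ library of day 1, and 1 and 2 without the first and the second of day 14. With library size alone, which moved the median of all genes by 0.19 here, 1 member rose and 4 fell, and with upper quartile factors 1 rose and 7 fell.

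In CX3CR1+ macrophages 4 of the 6 genes that fell belong to complex V. These were Atp5l, subunit g of the membrane part (fell by 0.92, SE 0.26, adjusted p = 0.031), Atp5h, subunit d of the peripheral stalk (fell by 0.64, SE 0.15, adjusted p = 0.011), Atp5f1, subunit b of the same stalk (fell by 0.60, SE 0.18, adjusted p = 0.041), and the catalytic Atp5b (fell by 0.50, SE 0.14, adjusted p = 0.029). Ndufb7 fell here too, by 0.94 (SE 0.20, adjusted p = 0.0059), from 54.5 and 58.5 CPM to 27.6 and 31.5 CPM. In contrast, mt-Nd6 was the one mitochondrially encoded gene to fall, by 0.83 (SE 0.18, adjusted p = 0.0075; -0.58 and not past the threshold without the second CX3CR1+ library of day 1). The count of 6 became 1 or 2 when either library of either day was left out, and 11 without either CD9+ library of day 1. Neutrophil markers in this sort went from 1070 and 1020 CPM to 442 and 523 CPM over the interval, and their part was not tested.

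In F4/80- cells mt-Nd6 fell by 1.29 (SE 0.18, adjusted p = 6.2e-04), from 150 and 136 CPM to 60.1 and 56.7 CPM. The remaining mitochondrial genes had values of -0.93 to -0.66, with mt-Nd3 at 0.21, and did not pass, mt-Co1 being the nearest (-0.83, SE 0.26, adjusted p = 0.074). The share of counts on the 8 genes went from 1.55% ± 0.0849 (SD, n = 2) on day 1 to 0.897% ± 0.00919 (SD, n = 2) on day 14, with no overlap. Neutrophil markers in these cells were 13700 and 11800 CPM on day 1 and 14900 and 15800 CPM on day 14, and their part was not tested. The count of 1 became 7 without either CD9+ library of day 1 and 4 without either neutrophil library of day 1, all of them falls.

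Neutrophils showed both rises and falls. Each was a smaller share of the members than of all genes, where 11.5% rose and 16.2% fell. Ndufb8, an accessory subunit of complex I, rose by 0.68 (SE 0.19, adjusted p = 0.014), from 18.8 and 14.2 CPM to 24.6 and 28.2 CPM. Atp5c1, the central gamma subunit of complex V, rose by 0.50 (SE 0.17, adjusted p = 0.044) and Ndufs1 by 0.44 (SE 0.14, adjusted p = 0.034). Ndufa7 fell by 0.67 (SE 0.24, adjusted p = 0.046), and Ndufaf4 was at least 1.61-fold higher on day 1 than on day 14. Monocyte and macrophage markers in the neutrophil sort went from 1330 and 1330 CPM to 547 and 545 CPM, and their part was not tested. The second neutrophil library of day 1 was lower than the first over the members (median log2 difference -0.49, against -0.07 over all genes). Without the first neutrophil library of day 1 the count of 5 became 15 (14 rises and 1 fall), without the second it became 3, all falls, and without the first or the second of day 14 it became 3 and 1. By the test of the difference in change, 5 members changed differently over time in neutrophils than in the mean of CD9+ and CX3CR1+ macrophages (14% of all genes). The same test called 0 members between CD9+ and CX3CR1+ macrophages (2.84% of all genes; 5 members at an unadjusted p under 0.05; 1 by DESeq2) and 0 for F4/80- cells against their mean (1.1% of all genes; 7 at an unadjusted p under 0.05; 1 by DESeq2).

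**Figure D5:**
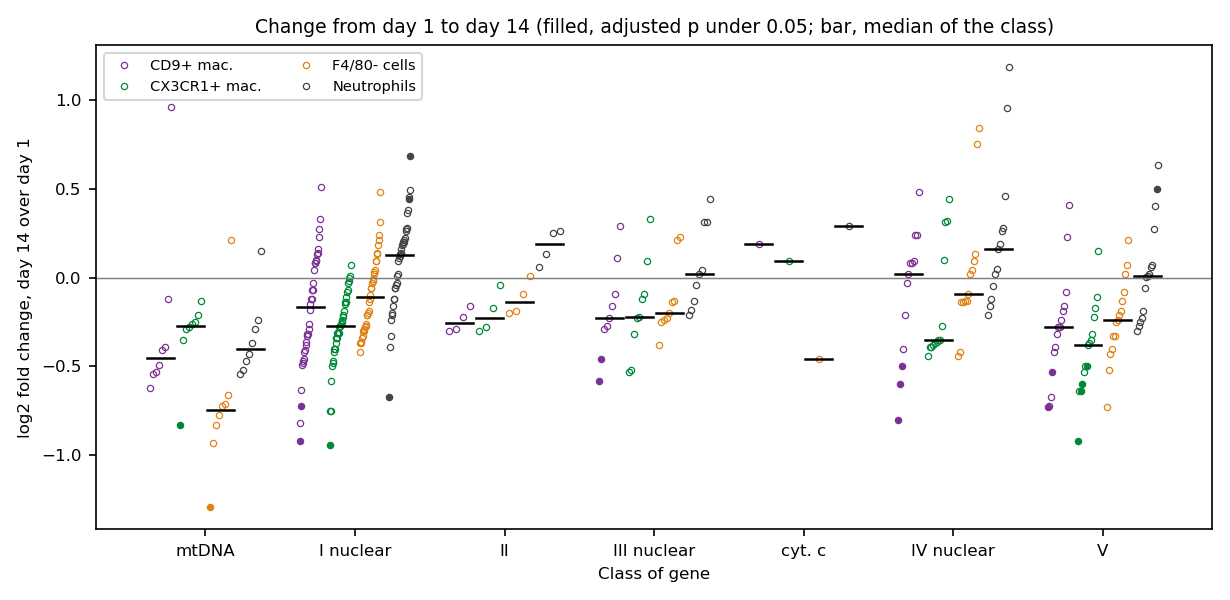
Log2 fold change from day 1 to day 14 of each tested subunit by class (assembly factors not drawn), in the 4 populations (filled points, adjusted p under 0.05; open points, not past it; bars, class medians). The mitochondrially encoded genes have medians of -0.45, -0.27, -0.74 and -0.40 in CD9+ macrophages, CX3CR1+ macrophages, F4/80- cells and neutrophils, where mt-Nd6 is the filled point in CX3CR1+ macrophages and F4/80- cells.

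Other genes of the mitochondrion were read in the same comparisons with neutrophils, where 33.5% to 35.5% of all genes were higher and 33.7% to 34.8% lower on day 1, and 34.3% to 37.2% higher and 31.5% to 33.3% lower on day 14. Of 76 tested subunits of the mitochondrial ribosome, which translates the messenger RNAs of mitochondrial DNA, 54, 56 and 57 were higher on day 1 and 53, 51 and 54 on day 14, and at most 3 were lower, with medians of 1.03 to 1.23, so that 67.1% to 75.0% of them were higher. Mrpl12 (log2 fold changes 2.78 to 3.35) and Mrps2 (3.04 to 3.39) were among the largest. Of 20 genes that act in copying or transcribing mitochondrial DNA or in processing its RNA, 14, 14 and 15 were higher on day 1 and 9, 10 and 9 on day 14, with 2 or 3 lower. Higher genes were a larger share of this list than of all genes in each comparison. Lrpprc, which stabilises mitochondrial messenger RNAs, was higher by 2.42 and 2.55 in the CD9+ and CX3CR1+ macrophages of day 1 and by 2.67, 2.75 and 2.38 on day 14, and Polrmt, the polymerase of mitochondrial DNA, by 2.66, 2.93 and 2.46 on day 14. Fastkd2, an RNA-binding protein needed for the mitochondrial ribosome, was higher in all 6 comparisons (2.58 to 4.53).

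The citric acid cycle supplies NADH and succinate to the chain. Of its 13 genes 10, 10 and 9 were higher than in neutrophils on day 1 and 6 in each population on day 14 (69.2% to 76.9% and 46.2%), while 0, 1 and 0 were lower on day 1 and 2 in each population on day 14. The largest differences were in Idh3a (2.71 to 3.48), Suclg2 (2.98 to 3.51) and Fh1 (2.45 to 3.11). Mdh2, the malate dehydrogenase of mitochondria, was lower on day 14 in CX3CR1+ macrophages (-1.41, adjusted p = 3.7e-06) and F4/80- cells (-0.84, adjusted p = 4.9e-04). In the CD9+ macrophages of that day it measured 182 and 174 CPM, against 313 and 287 CPM in neutrophils. There it was not among the 4 largest differences of the list, so its log2 fold change is not given. Of 39 tested assembly factors outside the naming rule, 13 to 16 were higher and 4 to 7 lower, shares of higher genes near that of all genes. Among 7 tested nuclear regulators, 2 or 3 were higher (28.6% to 42.9%, on either side of the share of all genes) and 3 to 5 lower. The coactivator Pprc1 was higher (2.79 to 3.77), while Gabpb1, a subunit of GA-binding protein (-1.59 to -0.65), and the nuclear receptor Esrra (-1.59 to -0.86 where it was among the largest) were lower.

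Glycolysis ran the other way. Of 18 genes 16, 17 and 17 were lower than in neutrophils on day 1, and 13 in each population on day 14, with medians of -1.17, -2.13 and -1.71 on day 1 and -0.74, -1.27 and -0.77 on day 14. Slc16a3, the lactate exporter MCT4, was lower in all 6 comparisons (-4.01 to -2.29), whereas Pfkm, the muscle form of phosphofructokinase, was higher by 1.89 in the CD9+ macrophages of day 1 and by 1.82, 2.37 and 1.51 on day 14. Values of Pfkm are given only where it was among the 4 largest differences of the list. Over time, 13 of the 18 fell in CD9+ macrophages, 10 in CX3CR1+ macrophages, 6 in F4/80- cells and 15 in neutrophils, where 9.24%, 6.07%, 3.66% and 16.2% of all genes fell. In the same intervals the respiratory chain had 9, 6, 1 and 2 falls of 94.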

How the data were processed

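Raw read counts per gene were deposited by the authors, who trimmed adapters with Cutadapt, mapped the read pairs from SMART-Seq Stranded kits to mm10 with STAR, and counted reads in exons of Gencode M23. The strand setting of the counting is not given in the sources used here. Each library is a pool, replicates were not merged, and groups follow the labels. The members and gene lists were chosen with earlier results of these data known. The table holds 8 protein genes of mitochondrial DNA, and the rest were not analysed here.

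Tests on the counts used edgeR 4.0.16 under R 4.3.3 (quasi-likelihood test, TMM factors, a mean for each of 8 groups over 16 libraries, 8 residual degrees of freedom, common biological coefficient of variation 0.178). Genes with a group mean of at least 3 CPM in 1 group were tested (11998), p-values were adjusted by Benjamini-Hochberg, and genes were called at an adjusted p under 0.05. Printed CPM are per 1000000 of the TMM-scaled library, shares are of raw counts, and CPM per kb use exon lengths of GENCODE M21, which with its coordinates is on mm10. Total counts were 9233952 to 19814119, so that 1 count is a small share of any member above 3 CPM. The code was tested on simulated data. Alternatives were other scalings, filters, a fold threshold, DESeq2 1.42.0, only the compared libraries, a replicate block and leaving out each library. Named genes were those of mitochondrial DNA, complex II, Cyc1, Cycs, isoform sets, the 3 largest and 3 smallest called log2 fold changes of each comparison without overlap of its groups, called members that ran against their complex, and up to 4 genes a list. Of the members, 1 enters the counts and is not reported by name here. Genes named besides these were chosen after their values were seen. In all, 30 members overlap another listed gene, and reads of processed pseudogenes, which many members have, cannot be told apart here.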

Additional observations from a re-analysis of the deposited data

Results flagged for a closer look

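The change from day 1 to day 14 differed between neutrophils and the mean of CD9+ and CX3CR1+ macrophages for 5 of 94 members, by the interaction test in edgeR's quasi-likelihood model with Benjamini-Hochberg adjustment (14% of all genes). DESeq2 called 8. For Ndufs1 the difference was 0.72 (SE 0.18, adjusted p = 0.013), with changes of -0.38 in CD9+ macrophages, -0.19 in CX3CR1+ macrophages and 0.44 in neutrophils. For Ndufb7 it was 0.86 (SE 0.24, adjusted p = 0.028), with changes of -0.92, -0.94 and -0.06. For Cyc1 it was 0.74 (SE 0.20, adjusted p = 0.020), with changes of -0.29, -0.32 and 0.44, and for Ndufb8 it was 0.75 (SE 0.23, adjusted p = 0.040), with changes of 0.09, -0.22 and 0.68. For Ndufaf4 it was -3.58 (SE 0.95, adjusted p = 0.021), a fitted value that depends on the prior count because the neutrophil libraries of day 14 hold 1 and 0 counts. The count of 5 was 14 and 11 without the first and the second CD9+ library of day 1, 28 and 0 without the first and the second neutrophil library of day 1, 2 and 0 without those of day 14, and 3 without the first CX3CR1+ library of day 14.

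The same test called 0 members for CD9+ against CX3CR1+ macrophages (5 at an unadjusted p under 0.05; 1 by DESeq2; 15 without the first CD9+ library of day 1, and 1 without either neutrophil library of day 1; 2.84% of all genes). For F4/80- cells against the mean of both it called 0 as well (7 at an unadjusted p under 0.05; 1 by DESeq2; 6 without the first CD9+ library of day 1; 1.1% of all genes).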

How the results depend on the processing

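Of 185 gene values, 2679 of 2960 recomputations without 1 library kept their direction and side of the threshold, 280 lost the call and 1 reversed. Over the other alternatives 1615 of 1812 did, 194 lost the call and 3 reversed. The reversed values were Cox7b in CD9+ macrophages against neutrophils on day 1 (-0.19 without the first CD9+ library of that day) and, with library size alone, Ndufv3 in F4/80- cells against neutrophils on day 1 (0.07), Ndufs1 in CD9+ macrophages against them on day 14 (0.01) and Ndufa13 in F4/80- cells against them on day 14 (0.13). The cause was not tested.

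Counts of called members moved by more than 1.5 times as follows. With the fold threshold added, which can only lower a count, the changes over time came to 0, 0 and 1 in CD9+ macrophages, CX3CR1+ macrophages and neutrophils, and the comparisons with neutrophils to 40, 40 and 36 on day 1 and 20, 25 and 20 on day 14. Counts for other comparisons came to 0 (CD9+ against CX3CR1+, day 1), 2 (day 14), 1 (CD9+ against F4/80-, day 1), 0 and 0 (CX3CR1+ against F4/80-) and 1 (the neutrophil interaction). With library size alone 5 changed over time in CD9+ macrophages, 12 differed between CD9+ and CX3CR1+ macrophages on day 1, and 70 and 73 differed from neutrophils in the CX3CR1+ macrophages and F4/80- cells of day 14. Upper quartile factors gave 5 for CD9+ against CX3CR1+ macrophages on day 1. DESeq2 gave 6 there, 3 for F4/80- cells over time, and 1, 8 and 1 for the interactions of CD9+ macrophages, neutrophils and F4/80- cells. Without a filter, with the filter in every group and with filterByExpr the F4/80- change over time came to 2 each, and the filter in every group gave 10 for CX3CR1+ macrophages and 3 for neutrophils. Fits of only the compared libraries, with fewer samples, gave 0, 26, 22 and 1 over time (CD9+, CX3CR1+, F4/80-, neutrophils), 0 and 8 for CD9+ against CX3CR1+ on days 1 and 14, 0 and 7 for CD9+ against F4/80-, 23 and 23 for CX3CR1+ against F4/80-, 67 for F4/80- cells against neutrophils on day 14 and 3 for the neutrophil interaction.

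Leaving out 1 library at a time, the counts over time ranged from 1 to 29 (CD9+), 1 to 11 (CX3CR1+), 1 to 7 (F4/80-) and 1 to 15 (neutrophils). On day 1 they ranged from 0 to 27 (CD9+ against CX3CR1+; 0 without the first CX3CR1+ library), 2 to 35 (CD9+ against F4/80-), 0 to 14 (CX3CR1+ against F4/80-; 0 without the second F4/80- library), and 49 to 70, 49 to 76 and 47 to 65 against neutrophils. On day 14 they ranged from 3 to 6, 1 to 3 and 4 to 8 in the same order, and 31 to 59, 35 to 53 and 30 to 54 against neutrophils. The interactions ranged from 0 to 15, 0 to 28 and 0 to 6. In a group left with 1 library, that library was assumed to vary like the other groups.

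The log2 ratio of mitochondrial to nuclear counts changed when taken as the difference of median log2 CPM, from 1.59, 1.25, 1.58 and -0.378 on day 1 to 4.88, 4.68, 4.98 and 2.88 (CD9+, CX3CR1+, F4/80-, neutrophils), and from 1.43, 1.30, 0.955 and -0.886 on day 14 to 4.82, 4.75, 4.42 and 2.39, with neutrophils the lowest both ways. With TMM-scaled totals the mitochondrial share moved on day 1 from 1.55% to 1.34% in F4/80- cells (0.174% to 0.230% in neutrophils), and on day 14 from 1.16% to 1.06% (CD9+), 1.10% to 1.00% (CX3CR1+), 0.897% to 0.786% (F4/80-) and 0.129% to 0.167% (neutrophils). Chosen after seeing the data, the same scaling took the folds of the mitochondrial share over neutrophils from 8.16, 7.70 and 8.91 to 6.37, 5.18 and 5.83 on day 1 and from 8.99, 8.53 and 6.95 to 6.40, 6.02 and 4.72 on day 14 (CD9+, CX3CR1+, F4/80-), and those of the nuclear share from 2.02, 2.53 and 2.36 to 1.60, 1.70 and 1.54 and from 1.81, 1.88 and 1.95 to 1.29, 1.32 and 1.32. Without 1 library the mitochondrial folds ranged from 5.30 to 11.2, 6.06 to 10.6 and 7.01 to 12.2 on day 1 and 8.76 to 9.22, 8.37 to 8.68 and 6.90 to 7.01 on day 14. The nuclear folds ranged from 1.76 to 2.38, 2.20 to 2.97 and 2.05 to 2.78, and 1.77 to 1.85, 1.80 to 1.96 and 1.88 to 2.02, and the folds of the mitochondrial to nuclear ratio from 2.95 to 5.08, 2.51 to 3.75 and 3.43 to 4.42, and 4.75 to 5.19, 4.29 to 4.82 and 3.48 to 3.70.

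Same-numbered libraries deviated together only weakly (correlations 0.0132 to 0.144), which does not show that they come from different mice. The numbers were not taken as pairs in the main fit. A replicate block moved the count for CD9+ against CX3CR1+ macrophages on day 1 from 3 to 7, and 2 of 185 gene values lost the call, with no value moving by more than 0.10.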
